A study of Rattus norvegicus with 24 samples.

Results

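The left ventricle of rats given monocrotaline was examined on the 6 left ventricle arrays of a larger study: 4 arrays from monocrotaline rats, of which 2 were labelled HYP and 2 CHF, and 2 arrays labelled CON. All were taken at day 14. Genes were kept where all 6 arrays had a value, which left 2249 of 4126 named genes (54.5%). The series title names compensated and decompensated hypertrophy after monocrotaline injection, and HYP, CHF and CON are taken here as these states and their control. The abbreviations are not explained in the labels, which also give no dose, strain, age or haemodynamic value.

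Monocrotaline, an alkaloid of Crotalaria plants, damages lung blood vessels, so that the right ventricle has to pump against a raised pressure. The left ventricle is not pressure loaded in this model and, as the right ventricle fails, receives less blood to pump. A ventricle that is unloaded tends to lose muscle mass, while natriuretic peptide, skeletal actin and other fetal genes are commonly read as signs of load. Cyclin-dependent kinase 1 (Cdk1) and its partner cyclin B1 (Ccnb1) drive the entry of a cell into mitosis, which few adult heart muscle cells undergo, although fibroblasts, endothelium and immune cells of the heart can divide. No load was measured in these samples, so unloading is a description of the model and not of the data.

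Each sample was hybridised with a common reference pool, and the deposited values are signed scores that were read as sample against pool in units of the spread within an array (array SDs). They are not log2 fold changes. Scores below were centred on each array's median over its probes. The whole set holds 24 arrays, 18 of them from the right ventricle. The left ventricle arrays held 2936 to 3594 of 4803 probe values, and the scores of 3 of them (CHF LV15, CON LV21 and CON LV22) carry 2 decimals where those of the rest carry 3. Whether each sample is a different animal is not stated, so a p-value here reflects the spread among the arrays alone, which may be technical.

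Heart muscle markers were read on the arrays, although they are shared by both ventricles and cannot check the chamber. Of 17 ventricular heart muscle markers on the array, 15 were measured on all 6 arrays, and their median score was 1.17 and 0.503 on the HYP arrays, 1.47 and 1.10 on the CHF arrays and 1.05 and 0.99 on the CON arrays. The median of all genes was between -0.133 and -0.06 on the same arrays, so the heart muscle markers stood above it on each. Since scores are against a reference pool, this also depends on what the pool holds. Atp2a2 and Nppb lacked a value on at least 1 array, and Myh7 has no value here.

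The arrays of 1 group did not always resemble each other. Across the 2249 genes, which are not independent replicates, the Pearson correlation was -0.0908 between the 2 HYP arrays, 0.50 between the 2 CHF arrays and 0.739 between the 2 CON arrays. The highest was 0.745, between CHF LV15 and CON LV21, and the median of all pairs was 0.384. The HYP arrays thus stood apart from each other more than from the other conditions, and each result that rests on them is given with that in view.

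**Figure D1:**
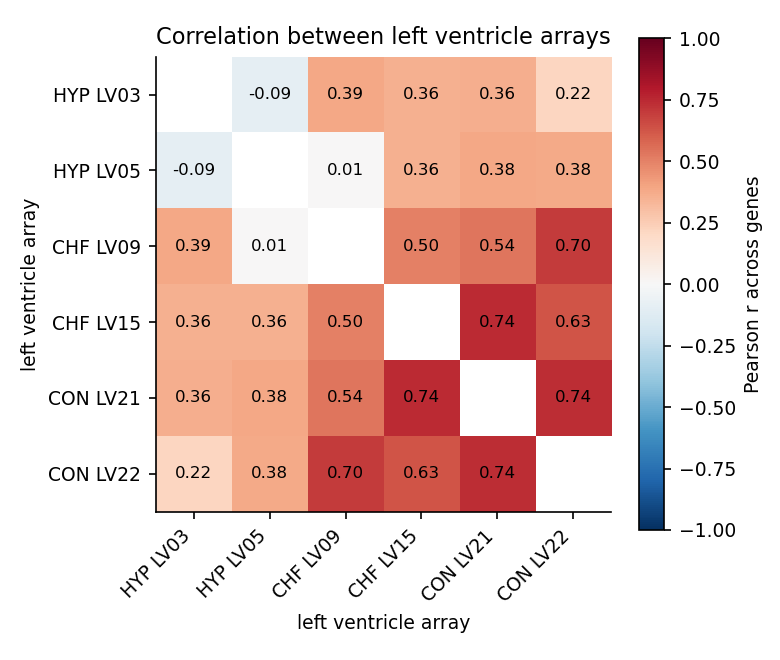
Pearson correlation between the 6 left ventricle arrays across 2249 genes, on a colour scale from -1 to 1. The lowest value, -0.0908, lies between the 2 HYP arrays, while the 2 CON arrays correlate at 0.739.

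The direction of the scores was not settled, because no source used here gives the dyes. Left and right ventricle arrays correlated between -0.416 and 0.653 across probes, and 7 of those pairs lay below -0.3. No pair of left ventricle arrays did, and over all 24 arrays 13 pairs did. Every comparison was therefore repeated with the sign turned on CHF LV09, CON LV21 and CON LV22 (and on CHF right ventricle arrays 10 and 14). These are the members of the 13 pairs that correlated less with the right ventricle. Since this turns both CON arrays, most differences from CON then change sign. As deposited, the turned left ventricle arrays correlated between 0.00724 and 0.745 with the other left ventricle arrays, so turning makes these correlations negative. Median scores of heart muscle markers were 1.47 on CHF LV09, 1.05 on CON LV21 and 0.99 on CON LV22. Turning puts these markers below the median of all genes there.

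The first question was whether any gene separated the 4 monocrotaline arrays from the 2 CON arrays. By limma none of 2249 genes passed at an adjusted p below 0.05 (0% in either direction), and 36 had an unadjusted p below 0.05 (1.6%), 5 of them higher (0.222%) and 31 lower (1.38%) with monocrotaline. Values of the groups did not overlap for 135 genes (6%), with 63 higher (2.8%) and 72 lower (3.2%) on all 4 monocrotaline arrays. With the scores as deposited, uncentred, that split was 108 higher and 49 lower, and the median difference over all genes moved from 0.0365 to 0.119. The genes named next have the largest differences among the 135 and are described, not called. In whole tissue, fewer cells of a type and less RNA per cell cannot be told apart.

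Among the genes that stood higher with monocrotaline, Cr1l, a regulator of complement on cell surfaces, had the largest difference. Its scores were -0.518 and 1.30 on the HYP arrays, -0.179 and -0.23 on the CHF arrays and -1.8 and -1.72 on the CON arrays, a difference of 1.85 ± 0.530 (SE, n = 4 and 2, limma adjusted p = 0.998). The 2 CON arrays lay close together below all others. Grin1, a subunit of the NMDA glutamate receptor, differed by 1.51 ± 0.617, with CON LV21 at -2.01 and CON LV22 at -0.8. Akr1c14, a hydroxysteroid dehydrogenase, differed by 1.27 ± 0.511, with both CON arrays near the same score, at -1.56 and -1.53.

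Usp2, a ubiquitin-removing enzyme under control of the circadian clock, differed by 1.15 ± 0.533. Phlda1, a pleckstrin-homology protein, differed by 1.08 ± 0.405, and its highest CON score of -2.55 lay below the lowest monocrotaline score of -1.91, on CHF LV15. Clta, a clathrin light chain, differed by 1.04, and Crot, the peroxisomal carnitine octanoyltransferase, by 0.981 ± 0.417. Dmgdh, the mitochondrial dimethylglycine dehydrogenase, stood at 1.35 and 0.392 on the HYP arrays, -0.069 and 0.4 on the CHF arrays and -0.22 and -0.75 on the CON arrays. Crot was highest on the HYP arrays, at -0.169 and 0.715, against -1.16 and -0.7 on the CHF arrays and -1.25 and -1.37 on the CON arrays. Turning the sign changed the direction of 7 of these 8 genes, and Dmgdh stayed higher by 0.067.

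Of the genes that stood lower, Mark2, a kinase that acts on microtubule-associated proteins, had the largest difference. Its scores were -2.91 and -0.675 on the HYP arrays, -1.82 and -3.73 on the CHF arrays and -0.45 and 0.62 on the CON arrays, a difference of -2.37 ± 0.764 (n = 4 and 2, limma adjusted p = 0.998). Its direction was the same with the sign turned, at -1.29. HYP LV05 lay near CON LV21, so the groups are separated by little.

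Clu, which encodes the secreted chaperone clusterin, stood at 1.67 and 0.288 on the HYP arrays, 2.89 and 2.68 on the CHF arrays and 4.4 and 3.54 on the CON arrays. The difference was -2.09 ± 0.502 (n = 4 and 2, limma adjusted p = 0.998), with CHF between HYP and CON. The 3 groups did not overlap with one another.

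Cd36, the fatty acid transporter of the heart muscle cell membrane, differed by -2.32 ± 1.37, but this rested on HYP LV03 at -3.19, while the other 3 monocrotaline arrays held 2.83, 2.43 and 2.21 and the CON arrays 3.9 and 2.87. Noct, a circadian enzyme, differed by -1.73 ± 0.872 and was likewise lowest on HYP LV03, at -2.61. Vdac1, the channel of the outer mitochondrial membrane, differed by -1.68 ± 0.595, with scores of -0.584 and 1.41 on the HYP arrays, 1.03 and 1.87 on the CHF arrays and 2.82 and 2.41 on the CON arrays. HYP LV03 was the lowest array for all 3 genes.

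Slc1a1, a glutamate transporter, differed by -1.45 ± 0.608 and Rplp0, a protein of the ribosomal stalk, by -1.32 ± 0.492. Asgr1, a receptor known from liver cells, differed by -1.47 ± 0.615 as the mean of its probes, while the only one of them with a value on all 6 arrays differed by -0.862. HYP LV03 was again the lowest array for Slc1a1, Rplp0 and Asgr1, at -1.05, -0.419 and -1.45. CHF LV09 at 1.11 nearly met CON LV21 at 1.19 for Slc1a1. For Asgr1, HYP LV05 at 0.496 nearly met CON LV21 at 0.6. All 8 lower genes except Mark2 stood higher when the sign was turned.

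**Figure D2:**
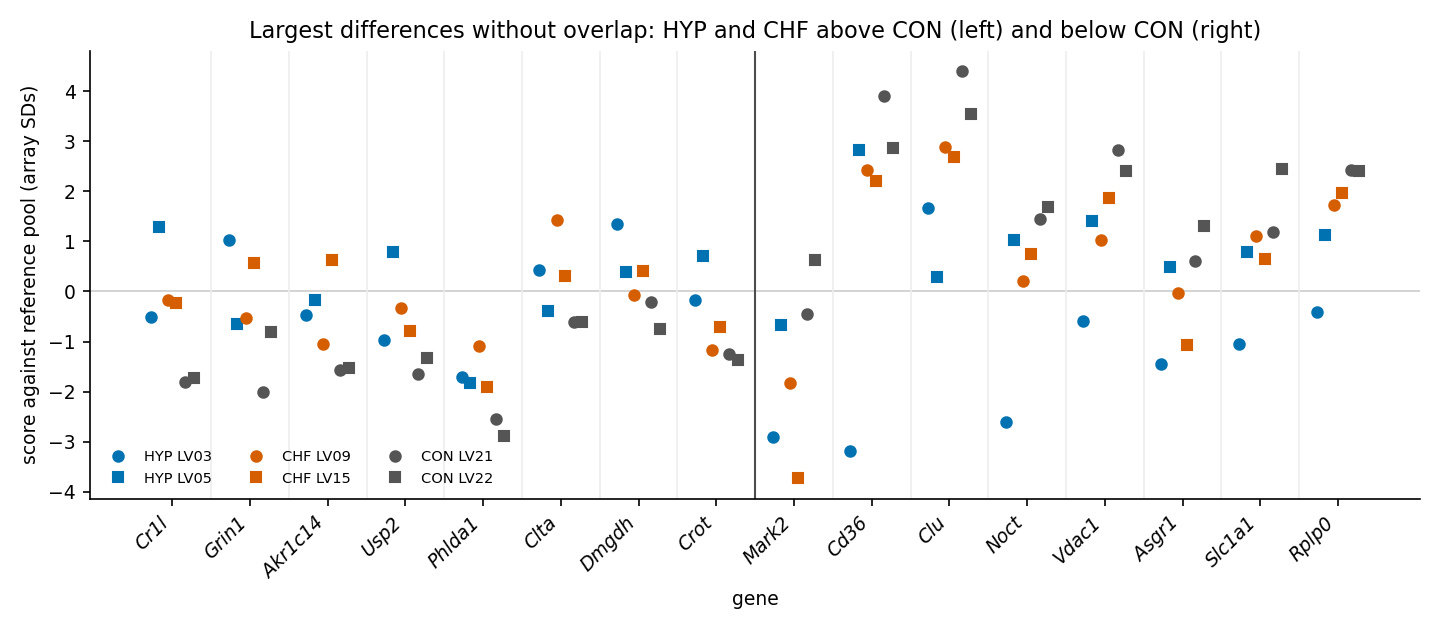
Scores (array SDs) on each of the 6 left ventricle arrays for the 8 genes with the largest positive and the 8 with the largest negative difference among genes whose HYP and CHF arrays do not overlap the CON arrays. For Cd36, HYP LV03 at -3.19 lies far below the other 5 arrays, whereas for Clu the CHF arrays at 2.89 and 2.68 lie between HYP and CON. With the sign turned on CHF LV09 and both CON arrays, 14 of the 16 genes change direction.

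HYP and CHF were then taken apart, starting with the mitotic genes. Cdk1 stood at -1.62 and -1.21 on the HYP arrays, -0.122 and 0.47 on the CHF arrays and -1.05 and -1.23 on the CON arrays. Ccnb1 stood at -3.05 and -1.87 on the HYP arrays, 0.149 and 0.06 on the CHF arrays and -1.31 and -1.67 on the CON arrays. For both genes the 2 CHF arrays lay above the other 4. The HYP arrays overlapped CON for Cdk1 and lay below CON for Ccnb1. The monocrotaline arrays as 1 set therefore overlapped CON, with a difference of 0.52 ± 0.390 for Cdk1 and 0.313 ± 0.446 for Ccnb1 (n = 4 and 2, limma adjusted p = 0.998 for each).

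Between CHF and HYP, Cdk1 differed by 1.59 ± 0.450 (n = 2 and 2, limma adjusted p = 0.752) and Ccnb1 by 2.56 ± 0.514 (adjusted p = 0.348). Between CHF and CON, Cdk1 differed by 1.31 ± 0.450 and Ccnb1 by 1.59 ± 0.514 (limma adjusted p = 0.9996 for each). Neither gene passed the adjustment in either contrast.

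Hmgb2, a chromatin protein abundant in dividing cells, stood at -1.16 and -2.23 on the HYP arrays, 1.15 and 0.91 on the CHF arrays and -1.24 and -1.22 on the CON arrays. Stmn1, the microtubule-destabilising protein stathmin, stood at -1.79 and -1.32 on the HYP arrays, 0.565 and 0.68 on the CHF arrays and -0.58 and -1.36 on the CON arrays. Aurkb, the aurora kinase that acts on chromosome attachment, stood at -1.01 and -0.642 on the HYP arrays, 0.904 and 1.67 on the CHF arrays and -0.9 and 0.38 on the CON arrays. Again the CHF arrays were the highest 2 of 6, and for Aurkb CON LV22 came next.

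The differences between CHF and HYP were 2.72 ± 0.495 for Hmgb2, 2.18 ± 0.470 for Stmn1 (limma adjusted p = 0.348 for each) and 2.11 ± 0.562 for Aurkb (adjusted p = 0.729). Aurkb was chosen after its values were seen. Under turned signs, the differences between CHF and HYP kept their direction, at 1.71 for Cdk1, 2.41 for Ccnb1, 1.57 for Hmgb2, 1.61 for Stmn1 and 1.21 for Aurkb. Those between CHF and CON became -0.844 for Cdk1, -1.53 for Ccnb1, -1.35 for Hmgb2 and -0.912 for Stmn1, and 0.123 for Aurkb.

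Of the 15 genes of mitosis and the G2/M step on the array, 9 were measured on all 6 arrays. Both CHF arrays exceeded the other 4 for 5 of the 9, against 93 of 2249 genes (4.14%), a count made after the values had been seen. For the same 5 the unadjusted limma p of CHF against HYP was below 0.05, against 4.09% of all genes in that direction. This reuses the CHF and HYP values of the first count and is no second observation. Across the 6 arrays Cdk1 correlated at 0.934 with Ccnb1, 0.869 with Hmgb2, 0.962 with Stmn1 and 0.895 with Aurkb. The 5 genes therefore do not count as separate observations. The median difference of the 9 was 1.59 between CHF and HYP, 1.31 between CHF and CON and -0.274 between HYP and CON, beside 0.026, 0.006 and 0.034 over all genes. Against CON the 4 monocrotaline arrays gave a median of 0.503, or -0.909 with the sign turned.

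The other 4 members did not share the pattern. Cdc25a, a phosphatase that activates cyclin-dependent kinases, lay above CON on all 4 monocrotaline arrays (-0.03, -0.544, -1.12 and 0.54 against -1.22 and -1.14) and differed between CHF and HYP by -0.0015. Wee1, the kinase that restrains Cdk1, ranged from -3.00 on HYP LV03 to 3.58 on HYP LV05, the widest spread of the 9. Pttg1, the securin that restrains the separation of sister chromatids, differed between CHF and HYP by 0.389 ± 0.596. Ran, a GTPase of nuclear transport and spindle assembly, differed by -0.243 ± 0.496. Of 17 measured genes of the preceding G1/S step and DNA replication, 1 had an unadjusted limma p below 0.05 between CHF and HYP, against 5.34% of all genes. The median difference was -0.067. Both CHF arrays exceeded the other 4 for 2 of these 17, against 4.14% of all genes. The same held for 3 of 19 sarcomere genes and 3 of 18 genes of collagens, matrix and proteases, and for 0 of 36 of the citric acid cycle and respiratory chain.

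**Figure D3:**
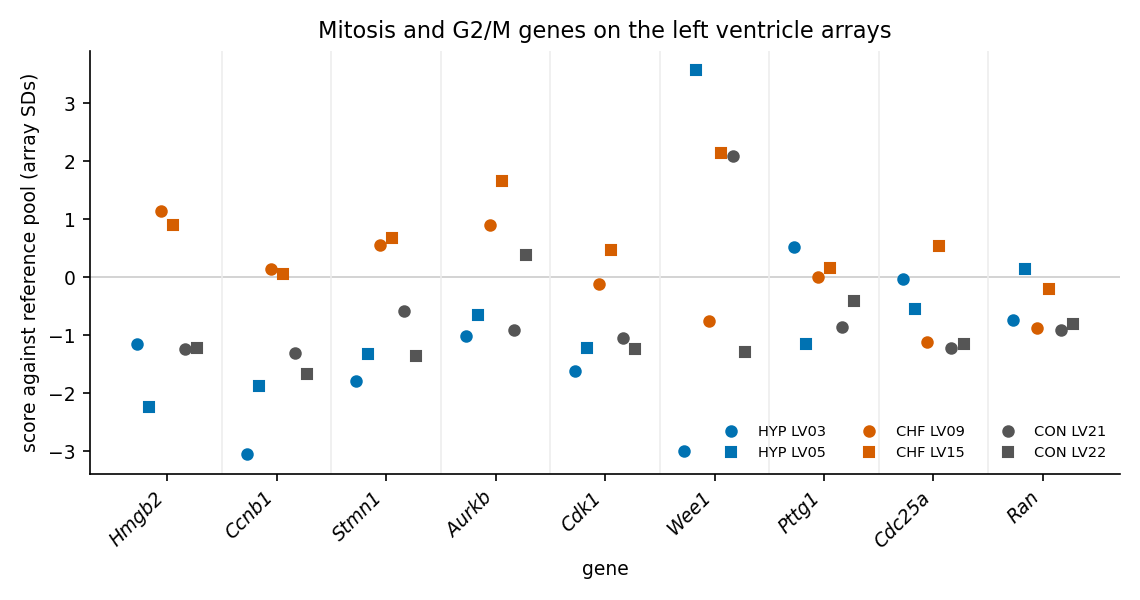
Scores (array SDs) of the 9 measured genes of mitosis and the G2/M step on the 6 left ventricle arrays. For Hmgb2, Ccnb1, Stmn1, Aurkb and Cdk1 the 2 CHF arrays are the highest, with Cdk1 at -0.122 and 0.47, while Wee1 ranges from -3.00 to 3.58 between the 2 HYP arrays. With the sign turned on CHF LV09 and both CON arrays, the order of CHF against HYP holds for these 5 genes and that against CON does not, except for Aurkb at 0.123.

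The windows of 250 bases before the annotated gene start are shown for the genes whose CHF scores were the highest, because promoters of mitotic genes are known for pairs of CCAAT boxes, bound by NF-Y, and for the cell cycle homology element TTTGAA. They come from RefSeq (GRCr8), which held 4 of the 5 genes, and read 5′ to 3′ on the gene's strand. Capitals mark CCAAT or its reverse complement ATTGG, and TTTGAA or its reverse complement TTCAAA; no match of one overlaps a match of the other. Cdk1 lies on the plus strand at chr20:19265043-19265292, Ccnb1 on the minus strand at chr2:33655226-33655475, Hmgb2 on the minus strand at chr16:37723951-37724200 and Stmn1 on the plus strand at chr5:151964929-151965178.
Cdk1: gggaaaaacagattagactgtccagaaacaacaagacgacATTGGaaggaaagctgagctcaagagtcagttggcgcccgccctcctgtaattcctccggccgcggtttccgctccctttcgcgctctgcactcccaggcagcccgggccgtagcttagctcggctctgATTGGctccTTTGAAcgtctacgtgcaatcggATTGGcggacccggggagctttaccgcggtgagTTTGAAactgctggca
Ccnb1: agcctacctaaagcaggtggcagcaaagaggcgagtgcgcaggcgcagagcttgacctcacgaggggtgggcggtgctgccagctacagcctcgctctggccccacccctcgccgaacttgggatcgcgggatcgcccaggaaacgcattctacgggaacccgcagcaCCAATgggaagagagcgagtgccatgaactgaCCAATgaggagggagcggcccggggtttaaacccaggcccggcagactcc
Hmgb2: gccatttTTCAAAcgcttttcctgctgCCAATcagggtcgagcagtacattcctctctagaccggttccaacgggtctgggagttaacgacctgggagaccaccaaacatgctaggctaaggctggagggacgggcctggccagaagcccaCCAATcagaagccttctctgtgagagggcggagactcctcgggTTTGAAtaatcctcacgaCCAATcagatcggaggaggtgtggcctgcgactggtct
Stmn1: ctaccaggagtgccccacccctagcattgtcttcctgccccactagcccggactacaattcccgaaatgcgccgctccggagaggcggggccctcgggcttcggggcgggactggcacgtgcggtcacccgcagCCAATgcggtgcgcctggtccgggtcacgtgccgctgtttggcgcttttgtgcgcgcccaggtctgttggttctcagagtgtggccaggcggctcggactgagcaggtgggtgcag

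CCAAT or ATTGG occurred 3 times in the Cdk1 window, 3 times in that of Hmgb2, 2 times in that of Ccnb1 and 1 time in that of Stmn1. Over all 33469 windows of the same length, 34.0% held the motif and 9.42% held it at least 2 times. TTTGAA or TTCAAA occurred 2 times each in the windows of Cdk1 and Hmgb2 and was not found in the other 2, and 16.2% of all windows held it. A match describes the letters and does not show that a factor binds there.

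In the right ventricle the same genes gave a reference for the size of the scores. Cdk1 ranged from -0.545 to 0.817 (median 0.369) on the 6 CHF arrays, from -1.34 to -0.713 (median -1.10) on the 6 HYP arrays and from -2.03 to -0.965 (median -1.59) on the 6 CON arrays. The CHF left ventricle scores of -0.122 and 0.47 lay within the range of CHF right ventricles. The monocrotaline effect on Cdk1 differed between ventricles by -0.622 ± 0.427 (left minus right, limma adjusted p = 0.999).

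Ccnb1 ranged from -0.587 to 0.805 on 6 CHF right ventricle arrays, from -1.39 to -0.225 on 5 HYP arrays and from -2.39 to -0.567 on 4 CON arrays. CHF LV09 and LV15 lay within the first of these ranges, and both HYP left ventricle arrays lay below the second. Hmgb2 reached 1.79 and 1.555 on CHF right ventricle arrays 14 and 10, whose sign is in doubt, and was -0.076 or lower on the other CHF arrays. Its median there was -0.276, so that both CHF left ventricle scores lay above that median. Its CHF right ventricle range, -0.734 to 1.79, overlapped those of HYP (-1.11 to 0.795) and CON (-2.12 to -0.384). Stmn1 ranged from -1.81 to 1.47 on 5 CHF, from -2.94 to 0.924 on 5 HYP and from -1.93 to 0.236 on 4 CON right ventricle arrays. Its highest CHF scores, 1.47 and 1.19, were again on arrays 14 and 10. Aurkb ranged from -0.633 to 1.22 on 6 CHF, from -1.93 to 0.807 on 5 HYP and from -1.06 to 0.646 on 5 CON arrays. In the right ventricle the 3 groups thus overlapped for Hmgb2, Stmn1 and Aurkb.

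The number of decimals in the deposited scores splits the left ventricle arrays in a way that partly follows the groups. Both HYP arrays carry 3 and both CON arrays 2, so HYP against CON coincides with this split. All right ventricle arrays carry 3, so the split also enters the comparison between ventricles. Within the arrays with 3 decimals, CHF LV09 exceeded the mean of the 2 HYP arrays by 1.29 for Cdk1, 2.61 for Ccnb1, 2.84 for Hmgb2, 2.12 for Stmn1 and 1.73 for Aurkb. Within those with 2 decimals, CHF LV15 exceeded the mean of the CON arrays by 1.61, 1.55, 2.14, 1.65 and 1.93 for the same genes. The CHF array was higher in each, with 1 CHF array on either side and so no test.

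Over all genes, CHF against HYP gave no call by limma (0% of 2249) and 120 genes with an unadjusted p below 0.05 (5.34%), 92 of them higher in CHF (4.09%) and 28 lower (1.24%). Ctnnb1, which encodes beta-catenin of cell junctions and Wnt signalling, had the smallest p. It stood at 0.324 and -0.216 on the HYP arrays, 2.84 and 3.77 on the CHF arrays and 2.03 and 2.45 on the CON arrays, a difference between CHF and HYP of 3.25 ± 0.502 (n = 2 and 2, limma adjusted p = 0.348). The HYP arrays were low and CHF and CON were both high. The difference was 0.411 with the sign turned.

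Tmsb10, the actin-binding thymosin beta 10, stood at -2.12 and -1.12 on the HYP arrays, 0.704 and 0.84 on the CHF arrays and -0.57 and -0.1 on the CON arrays. It differed between CHF and HYP by 2.39 ± 0.496 (limma adjusted p = 0.348), and by 1.69 with the sign turned. Its CHF arrays were the highest 2 and its HYP arrays the lowest 2.

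HYP against CON also gave no call by limma (0%), and 95 genes had an unadjusted p below 0.05 (4.22%), 15 higher (0.667%) and 80 lower (3.56%) in HYP. Nppa, which encodes the atrial natriuretic peptide released by a stretched heart, stood at 0.028 and -0.74 on the HYP arrays, 2.34 and 1.56 on the CHF arrays and 2.51 and 2.09 on the CON arrays. HYP lay below all other arrays by -2.66 ± 0.505 against CON (n = 2 and 2, limma adjusted p = 0.583), while CHF overlapped CON and differed by -0.348 ± 0.505. The difference of HYP from CON was 1.94 with the sign turned. For every gene, HYP against CON also coincides with the split of arrays by number of decimals.

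Clu was lower in HYP by -2.99 ± 0.580 and Krt19, a keratin, by -2.20 ± 0.431 (limma adjusted p = 0.583 for each). Vom2r18, a vomeronasal receptor gene, differed by -2.67 ± 0.533 and had scores of 0.083 and -0.788 on the HYP arrays, 2.55 and 1.61 on the CHF arrays and 2.54 and 2.09 on the CON arrays. These scores lay within 0.21 of those of Nppa on every left ventricle array and within 1.15 on the 10 right ventricle arrays that had both, a pair compared after the values were seen. The probe sequences were not used here.

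CHF against CON gave no call by limma (0%) and 23 genes with an unadjusted p below 0.05 (1.02%), 15 higher (0.667%) and 8 lower (0.356%) in CHF. Hmgb2 had the smallest p, at a difference of 2.26 ± 0.495 (n = 2 and 2, limma adjusted p = 0.9996). Stmn1 differed by 1.59 ± 0.470 and Nr1d1, the clock repressor REV-ERB alpha, by 1.96 ± 0.570. Nr1d1 stood at -1.15 and -1.20 on the HYP arrays, 1.90 and 1.16 on the CHF arrays and -1.13 and 0.27 on the CON arrays. Its 2 CHF arrays were the highest, and the 2 CON arrays differed from each other by more than the HYP arrays did.

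Pdc, which encodes the G-protein binding phosducin, was the lower gene of this set. It stood at -0.249 and -0.526 on the HYP arrays, -1.69 and -1.39 on the CHF arrays and 0.48 and -0.16 on the CON arrays, a difference between CHF and CON of -1.70 ± 0.453. Hmgb2, Stmn1, Nr1d1 and Pdc all changed direction against CON when the sign was turned, Nr1d1 to -0.798 and Pdc to 0.311.

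The classical genes of a loaded or unloaded ventricle showed no common course. Acta1, an actin of skeletal muscle that fetal and loaded hearts also make, stood at -1.75 and -3.21 on the HYP arrays, 1.25 and -1.62 on the CHF arrays and 0.41 and -0.85 on the CON arrays. The monocrotaline arrays overlapped CON (-1.11 ± 0.828, limma adjusted p = 0.998), and the 2 CHF arrays were the highest and the third lowest of the 6. Ankrd1, a stretch-responsive protein of the sarcomere and nucleus, ranged from -0.022 on HYP LV05 to 1.87 on CON LV21, with a difference of -0.162 ± 0.542. Leaving out HYP LV05 or CON LV21 turned that difference to 0.204 or 0.388.

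Pln, phospholamban, the brake on the calcium pump of the sarcoplasmic reticulum, lay between 0.85 and 1.54 on all 6 arrays and differed by 0.039 ± 0.390. The spread between the 2 CON arrays, which were the highest and lowest of the 6, was larger than this difference. Leaving out CON LV22 turned it to -0.306 and leaving out CHF LV15 to -0.0255. Myh6, the fast heart myosin heavy chain, stood at -1.12 and -0.24 on the HYP arrays, 0.69 and -0.52 on the CHF arrays and 0.17 and 0.95 on the CON arrays, with a difference of -0.858 ± 0.510.

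Of 13 measured fetal and hypertrophy genes, 0 lay above or below both CON arrays on all 4 monocrotaline arrays, against 2.8% of all genes above and 3.2% below, and the median difference was -0.234. Of 19 measured sarcomere genes, 1 lay above and 1 below CON on all monocrotaline arrays, shares to be read against the same background. In that list 5 genes were lowest on both HYP arrays, against 222 of 2249 genes (9.87%). This was not particular to sarcomere genes. It held for 5 of 9 smooth muscle and pericyte markers, 6 of 23 heat shock and chaperone genes and 4 of 13 genes of muscle atrophy and autophagy. It held for 0 of 36 genes of the citric acid cycle and respiratory chain and 0 of 32 of the proteasome and ubiquitin. The median over the sarcomere list was -0.310, with -0.395 for HYP and 0.0365 for CHF. Tpm4, a cytoskeletal tropomyosin, was among the 5 sarcomere genes. It stood at -1.96 and -0.74 on the HYP arrays, 0.588 and -0.14 on the CHF arrays and 0.53 and 0.14 on the CON arrays. Tnnt2, the heart troponin T, was the sarcomere gene that lay above CON on all 4 monocrotaline arrays, by 0.609.

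Among 23 genes of calcium handling, 2 lay above CON on all 4 monocrotaline arrays and 3 below, against 2.8% and 3.2% of all genes, with a median of -0.170. Cacna1c, the pore of the L-type calcium channel, differed by 0.786 ± 0.365, with HYP at -0.227 and 0.081, CHF at -0.66 and -0.45 and CON at -1.14 and -1.06. Camk2d, the main heart calmodulin kinase, differed by -1.01 ± 0.515 and Atp2b4, a calcium pump of the cell membrane, by -0.814 ± 0.422. None passed the limma adjustment.

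Genes of energy use lay near the median of all genes as lists. The median difference was -0.0107 over 34 genes of fatty acid uptake and oxidation, 0.0374 over 36 of the citric acid cycle and respiratory chain and 0.0498 over 27 of glucose use. Turned signs gave 0.583, 1.65 and 0.368 in the same order, and with the scores as deposited the first became 0.0712. Single members differed more, among them Vdac1 above and Atp5f1b, the beta subunit of the ATP synthase, at -2.30 ± 1.10. Atp5f1b stood at -0.547 and 3.11 on the HYP arrays, 2.74 and 0.66 on the CHF arrays and 2.62 and 4.96 on the CON arrays, so that the groups overlapped.

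Aldoa, the muscle aldolase of glycolysis, differed by -1.77 ± 0.702, with -0.413 and 1.70 on the HYP arrays, 2.92 and 1.38 on the CHF arrays and 2.67 and 3.67 on the CON arrays. Slc25a20, which carries acylcarnitines into mitochondria, differed by -0.846 ± 0.409, and its HYP arrays, at 0.119 and -0.194, were the lowest 2. Ucp2, a mitochondrial uncoupling protein, lay below CON on all 4 monocrotaline arrays and differed by -1.15 ± 0.537. These are the members of the lists with the smallest unadjusted p and were not called.

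Genes of protein synthesis and breakdown were read next. Of 66 cytosolic ribosomal protein genes, 59 had a positive difference, against 1208 of 2249 genes, and the median was 0.343. On single arrays their median score was 1.05 and 0.114 in HYP, 0.411 and 0.59 in CHF and 0.36 and 0.09 in CON, so the groups overlapped and HYP LV03 stood highest. Rps7 and Rps24, proteins of the small subunit, lay above CON on all 4 arrays, by 0.695 and 0.604, and Rplp0 below. The list median was 0.480 with the sign turned and 0.157 without HYP LV03.

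Of 32 genes of the proteasome and ubiquitin, 27 had a positive difference, with a median of 0.211, which became -0.170 with the sign turned. Among 13 genes of muscle atrophy and autophagy the median was -0.0938. Gabarap, which links autophagosomes to their cargo, lay below CON on all 4 monocrotaline arrays, by -0.802, and the lysosomal protease gene Ctsl differed by -0.847.

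Of 23 heat shock and chaperone genes, 4 lay below CON on all 4 monocrotaline arrays, against 3.2% of all genes, and 1 lay above. The 4 were Hspa8, Hspb8, Hsp90ab1 and Pdia4. Pdia4, a disulphide isomerase of the endoplasmic reticulum, stood at -0.767 and -0.077 on the HYP arrays, 1.02 and 0.89 on the CHF arrays and 1.40 and 1.72 on the CON arrays, a difference of -1.29 ± 0.393 (limma adjusted p = 0.998). CHF lay between HYP and CON for Pdia4, as it did for Hsp90ab1, the constitutive HSP90, at 0.426 and 1.01, 1.78 and 1.51, and 2.26 and 1.92. The median of the 23 was nevertheless 0.067, or 0.680 with the sign turned.

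Markers of other cell types were read beside these results. Over 18 genes of collagens, matrix and proteases the median was -0.176 and 4 were positive, with Col3a1 at -0.754 and Col1a1 at -0.474, and Ccn2, a matrix protein induced by growth factors, above CON on all 4 arrays by 0.654. The median became 0.237 with the sign turned. It was -0.351 over 9 smooth muscle and pericyte markers, -0.272 over 6 endothelial markers, -0.243 over 9 fibroblast markers and -0.0668 over 6 macrophage markers, the last of which was positive (0.0153) with uncentred scores. Under the turned sign these medians became 0.471 for smooth muscle and pericytes, 0.142 for endothelium and 0.096 for macrophages, and stayed negative for fibroblasts at -0.206. Ramp2, an endothelial partner of the adrenomedullin receptor, lay above CON on all 4 arrays, by 0.867. The part of these cell types in the other results was not tested.

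Markers of further cells lay near the median of all genes or rested on few members. The median was -0.417 over 5 atrial markers, of which 0 had a positive difference, and 0.684 with the sign turned. Nppa, which is also made by the loaded ventricle, was the most different of them at -1.50, followed by Pam, an enzyme that amidates peptides, at -0.675. The median was -0.113 over 11 skeletal muscle markers, 0.227 over 6 adipocyte markers, 0.147 over 7 nerve and Schwann cell markers, 0.12 over 8 genes of liver and plasma proteins and -0.026 over the 2 measured lymphocyte and mast cell markers. In none of these lists did a member lie above or below CON on all 4 monocrotaline arrays. Of all genes 2.8% lay above and 3.2% below, so lists this short would often hold none.

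Separated members of the signalling lists are to be read against 2.8% of all genes above and 3.2% below CON on all 4 monocrotaline arrays. The median was -0.039 over 23 neurohormonal receptors and 0.0471 over 16 cytokines and chemokines, with 0 separated in either. The first became 0.043 with uncentred scores and -0.385 with the sign turned, and the second -0.226 with the sign turned. The median was -0.065 over 17 potassium, sodium and pacemaker channels, -0.00975 over 34 genes of oxidative stress and glutathione and -0.0478 over 22 growth factors and receptors, and all 3 were positive with uncentred scores. Kcnj1, a potassium channel known from the kidney, lay below CON on all 4 monocrotaline arrays, by -0.882 ± 0.381. Fgfr1, a receptor for fibroblast growth factors, did so too, with -0.834 and -0.203 on the HYP arrays, 0.516 and 0.96 on the CHF arrays and 1.60 and 0.985 on the CON arrays, a difference of -1.19. Its CHF arrays lay between HYP and CON, and CHF LV15 all but reached CON LV22.

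**Figure D4:**
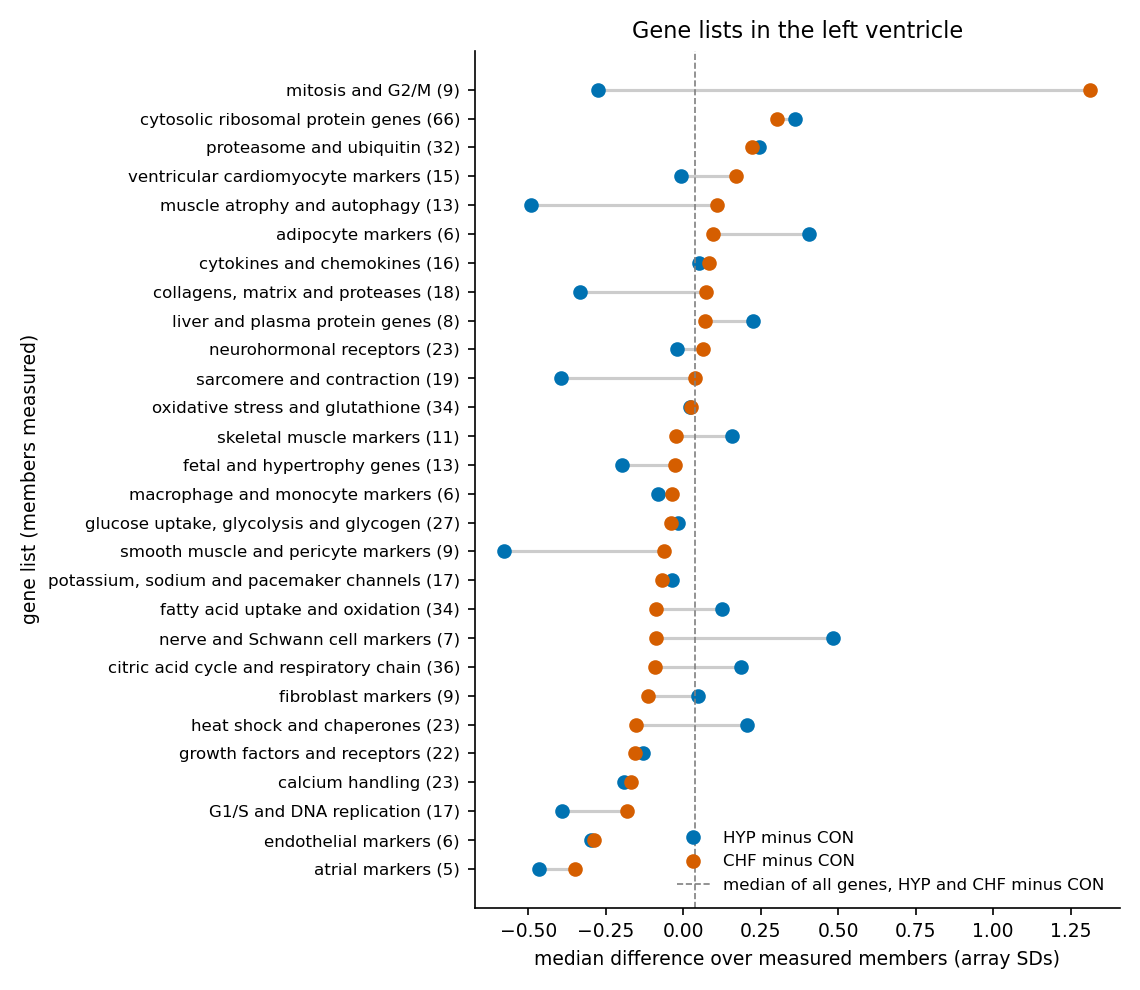
Median difference (array SDs) over the measured members of each gene list with at least 5 measured members, for HYP minus CON and CHF minus CON, with the median of all genes for HYP and CHF together (0.0365) as a dashed line. The list of mitosis and the G2/M step reaches 1.31 in CHF and -0.274 in HYP. With the sign turned, the monocrotaline median of that list becomes -0.909.

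Haemoglobin differed most between single arrays. Hba-a1, an alpha globin, stood at 5.72 and -8.04 on the HYP arrays, 2.60 and 2.98 on the CHF arrays and 5.02 and 3.28 on the CON arrays. Of 6 erythrocyte markers 4 were measured, with median scores of 5.29 and -5.81 in HYP, 2.11 and 3.06 in CHF and 5.05 and 3.26 in CON. HYP LV05 was thus the lowest array and HYP LV03 the highest.

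Leaving out HYP LV03 gave 3 limma calls for monocrotaline against CON (Hba-a1 at -6.77, Hbb at -6.78 and Tap2, a peptide transporter, at -5.11), 5 for HYP against CON and 4 for CHF against HYP. These rest on HYP LV05 as the only HYP array, assumed to vary like the other groups. Leaving out HYP LV05 gave 0 calls for monocrotaline against CON, 3 for HYP against CON (Cd36 at -6.58, Calcrl at -5.71 and Noct at -4.18) and 1 for CHF against HYP (Cd36). Calcrl encodes the receptor that pairs with Ramp2. The calls therefore differ with the HYP array that is kept, and CHF against CON gave 0 calls without any 1 array.

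The last comparison asked whether monocrotaline acted differently on the left and the right ventricle. With all 24 arrays in 6 groups, 9 of 2222 genes passed limma at an adjusted p below 0.05 (0.405%), all lower in the left, and 57 had an unadjusted p below 0.05 (2.57%). All 9 were also among the 18 genes called in the right ventricle itself (0.81%), where all 18 were higher with monocrotaline, from the same right ventricle arrays. For each of the 9 the right ventricle effect was larger in size than the left.

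Maoa, the mitochondrial enzyme that breaks down noradrenaline and serotonin, stood in the left ventricle at -1.64 and -1.57 on the HYP arrays, 0.852 and -1.42 on the CHF arrays and 1.16 and 0.13 on the CON arrays. In the right ventricle it ranged from 0.84 to 2.37 (median 1.43) in CHF, from -0.828 to 2.04 (median 0.210) in HYP and from -3.10 to -0.932 (median -2.31) in CON. CON was the lowest condition on the right, and on the left the CON arrays were above 3 of the 4 monocrotaline arrays. The effect was -1.59 on the left and 3.07 on the right, a difference of -4.66 ± 0.844 (limma adjusted p = 0.0294).

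Bdkrb1, the inducible bradykinin receptor, had left ventricle scores of -1.94 and -1.40 in HYP, 0.105 and -1.53 in CHF and -0.1 and -0.33 in CON, and differed between ventricles by -2.96 ± 0.567 (limma adjusted p = 0.0294). Tpm3, a slow-muscle tropomyosin, had scores of -2.69 and -2.53, -0.074 and -1.84, and -1.23 and -0.83 in the same order and differed by -3.16 ± 0.616 (adjusted p = 0.0294). On both genes CHF LV09 was the highest left ventricle array. CHF LV15 lay between the 2 HYP arrays for Bdkrb1, and between the HYP and the CON arrays for Tpm3.

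Clu differed by -6.08 ± 0.998 (limma adjusted p = 0.0384), but its right ventricle effect rests on 2 CHF, 2 HYP and 3 CON arrays. The other called genes, named after their values were seen, were Acta1 (-4.84 ± 1.06), Kif5b, a kinesin motor (-5.12), Safb, a nuclear scaffold protein (-4.80), Ocm, a small calcium-binding protein (-3.11), and Capn3, the muscle calpain (-2.61). Kif5b had values on 2 CHF, 2 HYP and 4 CON right ventricle arrays. For both Clu and Kif5b these 2 CHF arrays were CHF right ventricle arrays 10 and 14, the same 2 whose sign is in doubt. Clu and Kif5b reversed to 7.04 and 3.30 with the sign turned, and the other 7 kept their direction.

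Several of these genes followed one another from array to array. Acta1 and Ocm differed by at most 0.836 on any left ventricle array, and Acta1 and Safb by at most 1.40, with CHF LV09 the highest array for both pairs. Such genes do not count as separate observations. Leaving out HYP LV05, CHF LV15, CON LV21 or CON LV22 left 0 of the 9 calls, and leaving out HYP LV03 or CHF LV09 gave 8, of which 6 and 8 were among the 9. Under quantile normalization 3 genes were called, and 2 of them were among the 9. As left minus right pairs of the same number, 7 of the 9 could be tested and 0 were called. Maoa then gave -3.96 (limma adjusted p = 0.0699). Whether a number is 1 animal is not stated.

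The 18 genes called in the right ventricle were followed in the left. Their median effect was 2.15 on the right and -0.640 on the left, where 16 of 18 lay below 0. Taken apart, the left ventricle medians were -1.27 in HYP, with 18 of 18 below 0, and 0.031 in CHF, with 8 of 18 below 0. Of all 2249 genes, 47.7% lay below 0 in HYP and 49.2% in CHF. With the sign turned on CHF LV09 and both CON arrays, the medians of the 18 became -1.81 in HYP and -0.906 in CHF, with 16 of 18 below 0 in each, beside 56.9% and 53.4% of all genes. The counts of HYP and CHF no longer differed there. HYP and CHF share the CON arrays, and the HYP arrays differ from CON in the number of decimals as well as in condition. Cdk1 and Dynlt1, a dynein light chain, were the 2 genes with a positive effect in both ventricles, at 0.52 and 0.258 on the left.

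**Figure D5:**
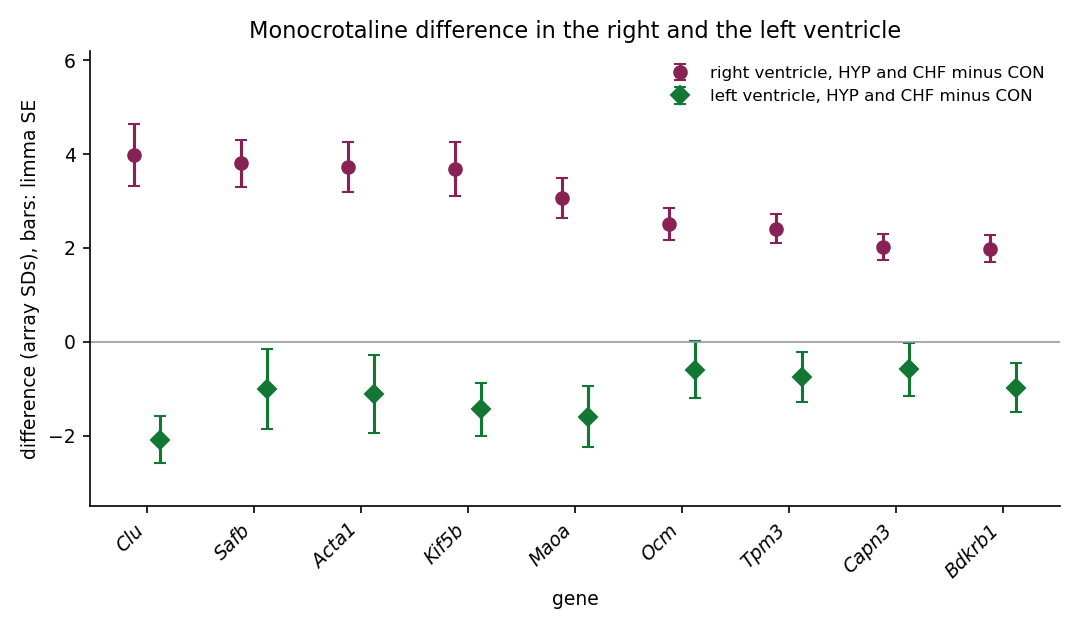
Difference of HYP and CHF together from CON (array SDs, bars are limma SEs) in the right ventricle (at most 18 arrays) and the left ventricle (6 arrays) for the 9 genes whose effect differed between ventricles. In the right ventricle Clu has values on only 2 CHF, 2 HYP and 3 CON arrays and Kif5b on 2 CHF, 2 HYP and 4 CON arrays. Right ventricle values are positive and left ventricle values negative, as for Maoa at 3.07 and -1.59. With the sign turned, Clu and Kif5b reverse their difference between ventricles.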

How the data were processed

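RNA of left and right ventricles was hybridised with a common reference pool on 2-colour arrays, per the labels. For every array the authors deposited 1 score per probe. No source used here gives the scale, dyes, normalization or filters behind it. The design had assumed log ratios. The SD of a left ventricle array was 0.966 to 1.01 and its median -0.2 to -0.074, so scores were read as standardised within arrays. Between 25.2% and 38.9% of probe values were missing. The number of arrays limits the precision.

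Of 4803 probes, 4278 had 1 gene symbol in the platform annotation, 4 had several and 521 had none, and the latter 2 kinds were left out. Probes of 1 symbol were averaged over those with a value (95 genes had more than 1 probe, and for 41 of these the probes used differ between arrays). Arrays were median-centred. Contrasts were fitted in R 4.3.3 by the lmFit, contrasts.fit and eBayes functions of limma 3.58.1, with Benjamini-Hochberg adjustment over all genes tested. Left ventricle contrasts used the 6 left ventricle arrays in 3 groups. The difference between ventricles used 24 arrays in 6 groups and genes with at least 2 values in each right ventricle group. The procedure was checked on simulated data.

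Genes named were Cdk1 and Ccnb1; the 8 largest differences in each direction among genes without overlap; the 4 smallest p of each contrast; up to 4 members per list; and classical load genes. The members, the 30 gene lists and these rules were chosen with earlier results of these data known. Alternatives were uncentred scores, quantile normalization, turned signs, array weights, single probes, 1 array left out, other sets of arrays, replicate blocks and, added after the data were seen, the number of decimals as a covariate.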

Additional observations from a re-analysis of the deposited data

Results flagged for a closer look

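The effect of monocrotaline differed between the left and the right ventricle by limma for 9 genes, with left minus right differences of -4.84 for Acta1, -2.96 for Bdkrb1, -2.61 for Capn3, -6.08 for Clu, -5.12 for Kif5b, -4.66 for Maoa, -3.11 for Ocm, -4.80 for Safb and -3.16 for Tpm3. Of 42 right ventricle groups of a gene examined for a single array far from the others, 1 held such an array: Hmgb2 was 0.795 on HYP right ventricle array 06, the highest of 6 HYP arrays whose median was -0.934. Chance gives about 1 such group in 20.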

How the results depend on the processing

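The left ventricle contrasts gave 0 limma calls under every alternative run on all 6 arrays. Leaving out 1 array in turn gave 0 to 3 calls for monocrotaline against CON, 0 to 5 for HYP against CON, 0 for CHF against CON, 0 to 4 for CHF against HYP and 0 to 8 for the difference between ventricles. That last count was 3 under quantile normalization, 28 with the sign turned (6 among the 9), 8 with array weights and 9 (8 among the 9) uncentred. Genes without overlap numbered 108 higher uncentred, 226 higher and 316 lower with the sign turned, and 85 to 249 higher and 100 to 317 lower with 1 array left out, where fewer arrays have to separate.

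Turning the sign reversed most differences from CON. Against CON, monocrotaline then gave -1.70 for Cdk1, -2.74 for Ccnb1, -1.58 for Cr1l, -1.04 for Grin1, -1.29 for Akr1c14, -1.64 for Usp2, -3.81 for Phlda1, -0.880 for Clta, -1.06 for Crot, 3.24 for Cd36, 4.41 for Clu, 1.31 for Noct, 3.03 for Vdac1, 0.455 for Asgr1, 1.64 for Slc1a1, 2.66 for Rplp0, 1.93 for Nppa and 1.79 for Ankrd1. HYP gave 1.94 for Nppa, 4.95 for Clu, 1.29 for Krt19 and 1.96 for Vom2r18. CHF gave -0.844 for Cdk1, -1.53 for Ccnb1, -1.35 for Hmgb2, 0.311 for Pdc, -0.798 for Nr1d1 and -0.912 for Stmn1. Between ventricles Clu became 7.04 and Kif5b 3.30. Ankrd1 was 0.188 with decimals as a covariate and -0.712 to 0.388 with 1 array left out, and Pln -0.306 to 0.384. The cause was not tested.

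The labels give a left and a right ventricle array the same number in 6 cases. Deviations of same-numbered arrays from their group means correlated between -0.282 and 0.405, above 0.1 in 3 of 6. The same 3 correlated best with their own number. The other 3, at -0.282, 0.0373 and -0.0538, hold CHF LV09, CON LV21 and CON LV22, the left ventricle arrays whose sign was turned. Within a group the deviations of the left ventricle arrays mirror each other, so these are not 6 separate checks. They cannot decide whether the same number marks a pair. The main test did not take the numbers as pairs, and that choice is not settled by them. The number as a replicate block gave 10 genes with duplicateCorrelation (9 among the 9, consensus correlation 0.236) and 0 of 1875 genes as left minus right pairs, with 43 at an unadjusted p below 0.05. As pairs, Maoa gave -3.96 (limma adjusted p = 0.0699), Acta1 -3.66 (0.0902) and Safb -4.26 (0.143). No left ventricle contrast gained a call under the block.

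With 2 arrays a group, 3 residual degrees of freedom and HYP arrays that do not resemble each other, a gene that missed the threshold is not shown to be unchanged.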
